A study of Mus musculus with 6 samples.

Results

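The genes described here are the immunoglobulin heavy and light chain genes, that is, every gene of the table whose symbol starts with Ighv, Ighg, Igha, Ighe, Ighd, Ighj, Ighm, Igkv, Igkj, Igkc, Iglv, Iglj or Iglc, without Ighmbp2, a helicase gene. The rule found 117 of 25755 genes. They were 51 heavy chain genes on chromosome 12, 61 kappa light chain genes on chromosome 6 and 5 lambda light chain genes on chromosome 16. The genes were chosen by symbol, and the group itself was selected on its summed value in these libraries, so the levels after sham surgery and optic nerve crush (ON-CR) are given as a description. Counts of tests passed are printed beside them and support nothing about the group.

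An antibody is built from heavy chains paired with light chains of either the kappa or the lambda type. In each developing B cell, one V gene is joined to a J gene (with a D gene between them in the heavy chain), and this joined segment is transcribed with a constant region gene. The heavy chain constant gene sets the class, with Ighm and Ighd used first and the Ighg genes (IgG) and Igha (IgA) used after class switching. Plasma cells, the secreting stage of the B cell lineage, make immunoglobulin mRNA in very large amounts, and the healthy central nervous system holds few of them. In bulk RNA, fewer cells of a type and less RNA per cell cannot be told apart.

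RNA was sequenced from whole optic nerves of perfused mice, with 3 sham-operated mice (mice 1 to 3) and 3 mice with ON-CR (mice 4 to 6). By the sample labels, each library came from 1 mouse. All 6 mice had the genotype NF1flox/flox;hGFAP-Cre, in which the human GFAP promoter drives Cre and removes Nf1 from neuroglial progenitors and their progeny, and all were 3 months old. Both groups therefore carried the deletion, and no mouse with intact Nf1 was analysed here. The values are estimated reads per gene divided by one factor per library, and the libraries held 17414091 to 23621006 estimated reads. One read was worth about one unit, and 3 reads, taken as the floor of detection, corresponded to values of 2.66 to 3.18. The oligodendrocyte gene Mbp, which encodes a myelin protein and marks myelinated nerve, was at 369255 or more in every library and was lower after ON-CR (log2 fold change -1.42, adjusted p = 0.0117 by limma).

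ON-CR mouse 6 stood apart from the other 5 libraries in these genes, and the values that rest on it are given with and without it. Transcripts of the sex chromosomes separated the groups as well. Xist, a non-coding RNA of the inactive X, was at 16.7, 2.14 and 30.9 in sham mice 1, 2 and 3 and at 2708, 6357 and 6131 in ON-CR mice 4, 5 and 6. The Y-linked gene Ddx3y was at 1645, 1291 and 1544 in the sham mice and at 976, 4.19 and 0 in the ON-CR mice. ON-CR mouse 4 thus had both transcripts far above the floor, although its library is labelled as 1 mouse. The authors' section on RNA extraction and PCR gives 2 mice per sample, and their sequencing section gives no number of mice. Whether a library held RNA of more than 1 mouse was not tested. Surgery and sex cannot be told apart by group.

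The variable and joining segments with high values in mouse 6 are shown first, as annotated in GENCODE M21 on GRCm38, the assembly also called mm10. They are germline sequences, and the reads of the mice were not used. Igkv8-21 (ENSMUSG00000076586.2) lies at chr6:70314895-70315472 on the minus strand and Igkv16-104 (ENSMUSG00000076522.2) at chr6:68425575-68426072 on the plus strand. Ighv8-12 (ENSMUSG00000076731.3) lies at chr12:115647945-115648387 on the minus strand. Igkv8-21 and Igkv16-104 held the most estimated reads of the kappa V genes in mouse 6, and Ighv8-12 led the heavy V genes. The coding exons of the 3 genes hold 362, 348 and 358 bases, and the last 200 of them are printed 5′ to 3′, and their 3′ end is where a kappa V gene is joined to J and a heavy V gene to D. Capitals mark the codons searched as TANTANTGN, which near the 3′ end of a V gene spell the tyrosine, tyrosine and cysteine before the most variable loop of the domain.
Igkv8-21: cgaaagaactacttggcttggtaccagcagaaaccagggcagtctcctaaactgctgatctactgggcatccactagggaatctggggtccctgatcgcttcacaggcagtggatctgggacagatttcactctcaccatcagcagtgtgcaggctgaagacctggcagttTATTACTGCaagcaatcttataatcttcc
Igkv16-104: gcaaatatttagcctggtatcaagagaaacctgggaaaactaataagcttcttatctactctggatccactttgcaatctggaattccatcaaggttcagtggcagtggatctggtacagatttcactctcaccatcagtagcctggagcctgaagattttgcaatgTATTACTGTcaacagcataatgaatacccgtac
Ighv8-12: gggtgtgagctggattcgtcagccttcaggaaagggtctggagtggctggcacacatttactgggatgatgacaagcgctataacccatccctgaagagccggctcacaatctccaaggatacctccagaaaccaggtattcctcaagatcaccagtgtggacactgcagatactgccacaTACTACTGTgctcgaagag
The motif began at base 334 of Igkv8-21, base 316 of Igkv16-104 and base 340 of Ighv8-12, counted from 1 at the first coding base. Searched on the coding strand, it was present in 47 of the 57 kappa V genes of the table, or 82.5%, and in 80.0% of the 100 annotated kappa V genes with a coding sequence. Of the 36 heavy V genes of the table with a coding sequence, 26 held it, or 72.2%, against 76.3% of the 114 annotated ones. The Igkv8-21 and Igkv16-104 coding sequences were 64.5% identical, so reads of one are unlike those of the other. Igkv8-21 was closest to Igkv8-30, at 92.6% identity, and Ighv8-12 was closest to Ighv8-9, at 94.7%.

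A V gene is joined to a J segment, which supplies the end of the variable domain. The table held 3 kappa J genes, and they are shown because the joined exon of a kappa transcript ends in a J segment. Igkj1 lies at chr6:70722562-70722599, Igkj2 at chr6:70722916-70722958 and Igkj5 at chr6:70723886-70723927, all on the plus strand. Capitals mark TTCGGN, the codons for the phenylalanine and glycine that end the loop, which all 3 kappa J genes of the table hold, as do 4 of the 5 annotated ones.
Igkj1: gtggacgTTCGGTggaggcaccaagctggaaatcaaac
Igkj2: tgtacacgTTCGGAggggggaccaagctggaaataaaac
Igkj5: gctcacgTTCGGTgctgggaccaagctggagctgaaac
The heavy J genes hold the same element with tryptophan in the first place, searched as TGGGGN. All 4 heavy J genes hold it and were in the table, on the minus strand. The one with the highest value, Ighj3 at chr12:113429085-113429132, is shown.
Ighj3: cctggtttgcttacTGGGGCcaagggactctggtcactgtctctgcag

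The table held only part of the immunoglobulin loci. Of the 393 annotated genes that meet the rule, 117 were in the table, among them 40 of 183 heavy V genes, 57 of 160 kappa V genes and 2 of 3 lambda V genes. All but Ighe, the IgE gene, of the 8 heavy chain constant genes were present, as were Igkc, 3 of 4 lambda constant genes, 4 of 4 heavy J genes and 3 of 5 kappa J genes. None of the 20 heavy D genes was present. Summed over the 6 libraries, the least abundant gene of the whole table had 9 estimated reads and the least abundant immunoglobulin gene 10, so a gene entered the table only if it was detected somewhere. Of the 117 genes, 68 had fewer than 10 estimated reads in the 5 libraries other than ON-CR mouse 6 together, and 17 had none in all 5. Without mouse 6 these 68 genes would fall below the lowest total of the listed immunoglobulin genes, and counts over the listed genes are not counts over the loci.

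The summed immunoglobulin value was 2336, 775 and 3465 in sham mice 1, 2 and 3 against 1793, 320 and 165962 in ON-CR mice 4, 5 and 6. The ON-CR group held both the highest and the lowest library. Mouse 6 was 47.9-fold above sham mouse 3, the next highest, and 519-fold above ON-CR mouse 5, the lowest. As a share of all values, immunoglobulin genes made up 0.0111%, 0.0037% and 0.0179% in sham mice 1, 2 and 3. They made up 0.00947% and 0.00175% in ON-CR mice 4 and 5, against 0.878% in mouse 6. The group means were 2192 ± 1351 for sham and 56025 ± 95212 for ON-CR (SD, n = 3 each), so the spread among ON-CR mice was larger than their mean. The mean of ON-CR mice 4 and 5 alone was 1056, below the sham mean. The log2 ratio of the group means was 4.68 with all mice and -1.05 without mouse 6.

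Gene by gene, 104 of the 117 were highest in mouse 6, against 5142 of all 25755 genes, or 19.97%. Nothing is read from that count, since 68 of the genes had fewer than 10 reads elsewhere and so entered the table through mouse 6. The ON-CR mean was higher than the sham mean for all but 16 of the 117 genes with all mice. Without mouse 6 it was higher for 19 and lower for 86. No gene of the 117 passed an adjusted p of 0.05 by limma over the whole table, in which 2.1% of genes passed, 0.971% higher and 1.13% lower, or 250 and 290 genes. With every library scaled to the same sum, 421 genes were higher and 195 lower, and again none of the 117 passed. At an unadjusted p under 0.05 there were 2, Igkv8-27 and Iglv3, where 15.6% of all genes passed. None of the 117 had groups that did not overlap, against 21.6% of all genes. The median log2 fold change was 1.26 over the 117 genes and 0.03 over all genes. Without mouse 6 it was -0.45 over the 117 genes. Without ON-CR mouse 5, the library with the fewest immunoglobulin reads, Igkv8-27 and Iglv3 passed at an adjusted p by limma of 0.0464 and 0.0465, although each had reads in mice 4 and 6 only. In that fit 854 of all 25755 genes passed.

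Of the heavy chain constant genes, Ighm and Ighd were not highest in ON-CR mouse 6, and the other 5 were. Ighm, which encodes the mu chain of IgM and is the class made first, was at 715, 454 and 325 in sham mice 1, 2 and 3 and at 416, 244 and 610 in ON-CR mice 4, 5 and 6. Its highest library was sham mouse 1, and the full range was 2.93-fold. Ighd, the delta chain gene of mature B cells that have not switched, was at 11.7, 32.8 and 17.8 in the sham mice and at 3.99, 6.29 and 15.6 in the ON-CR mice. Neither gene was highest in mouse 6, and the groups overlapped for both. They were 2 of the 13 immunoglobulin genes that were not highest there, and the other 11 were kappa V genes.

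Igha, the alpha chain gene of IgA, the class of mucosal secretions, was at 278, 27.4 and 588 in sham mice 1, 2 and 3 and at 178, 13.6 and 21450 in ON-CR mice 4, 5 and 6. The other 5 libraries already spanned 43.1-fold, and mouse 6 was 120-fold above their median. The sham and ON-CR values overlapped, with mouse 5 below and mouse 6 above all sham mice.

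The gamma chain genes of IgG, the main class of serum antibody, were low outside mouse 6. Ighg2c was at 30.5, 0 and 19.7 in sham mice 1, 2 and 3 and at 5.98, 0 and 4081 in ON-CR mice 4, 5 and 6. Ighg2b was at 13.1, 8.85 and 16.9 in the sham mice and at 1.99, 0 and 1602 in the ON-CR mice. Both subclasses were detected in sham nerves and were at 0 in ON-CR mouse 5. Ighg1 had 1 estimated read in the other 5 libraries together, in sham mouse 3, and a value of 60.5 in mouse 6. Ighg3 was at 5.31 in sham mouse 1, at 0 in the other 4 and at 43.6 in mouse 6. Ighg2c thus had the highest value of the 4 subclasses in mouse 6 and Ighg3 the lowest.

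Igkc, the single constant gene of the kappa light chain (ENSMUSG00000076609.2, chr6:70726435-70726966 on the plus strand), had the highest summed value of the 117 genes. It was at 845, 187 and 1602 in sham mice 1, 2 and 3 and at 785, 48.2 and 83710 in ON-CR mice 4, 5 and 6. The order of the libraries was that of Igha, and the other 5 spanned 33.2-fold. The lambda constant genes were far lower. Iglc1 was at 4.24, 2.66 and 21.6 in the sham mice and at 1.99, 0 and 94.5 in the ON-CR mice. Iglc2 was at 98.6 and Iglc3 at 63.3 in mouse 6, and neither was above 8.97 elsewhere. Iglc2 and Iglc3 are 96.2% identical over their coding sequences, so the division of reads between them is uncertain.

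**Figure D1:**
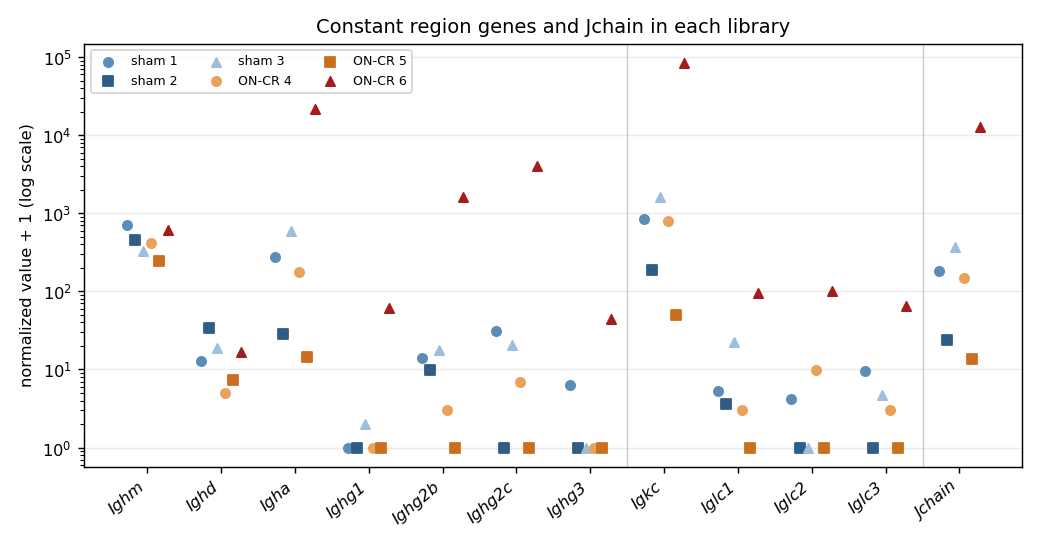
Normalized value plus 1, on a log scale, of the 7 heavy chain and 4 light chain constant genes and of Jchain, with 1 point per library (blue, sham mice 1 to 3; orange and red, ON-CR mice 4 to 6). Ighm lay between 244 and 715 in all 6 libraries, whereas Igha, Igkc and Jchain reached 21450, 83710 and 12738 in ON-CR mouse 6 and were lowest in ON-CR mouse 5.

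Igha and Jchain moved in a near-constant ratio. Jchain encodes the joining chain that links IgA into dimers and IgM into pentamers, and it is no heavy or light chain gene. Jchain was at 183, 23.0 and 372 in sham mice 1, 2 and 3 and at 148, 12.6 and 12738 in ON-CR mice 4, 5 and 6. The ratio of Igha to Jchain was 1.52, 1.19 and 1.58 in the sham mice against 1.21, 1.08 and 1.68 in the ON-CR mice. It stayed within this range while Jchain itself spanned 1013-fold. The ratio of Igkc to Jchain was wider, from 3.83 in ON-CR mouse 5 to 8.12 in sham mouse 2. Per exon length, Igkc over the sum of Igha and the Ighg genes was 11.8, 25.8 and 12.5 in the sham mice against 20.4, 17.7 and 13.4 in the ON-CR mice. These ratios are descriptions, since numerator and denominator come from the same library.

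**Figure D2:**
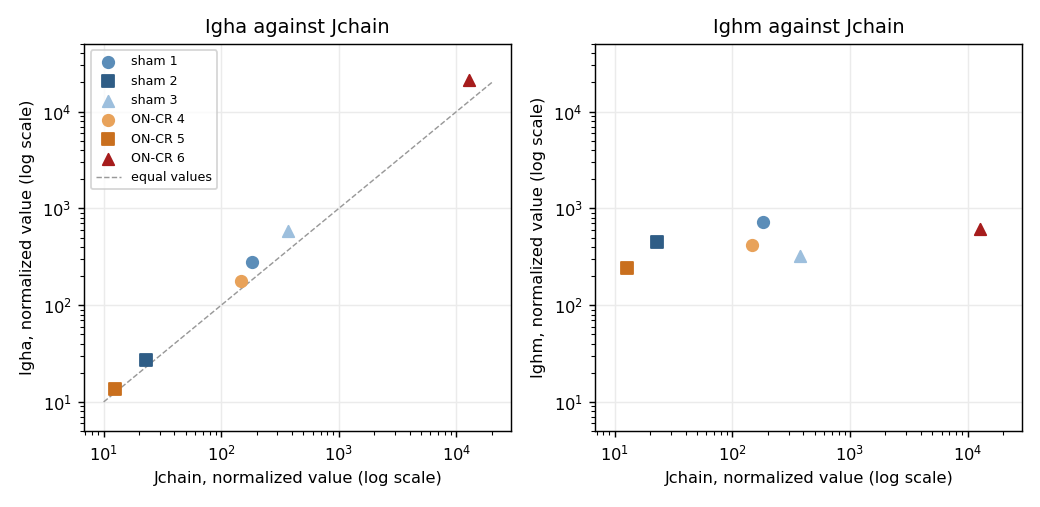
Igha (left) and Ighm (right) against Jchain, as normalized values on log axes with 1 point per library, and a dashed line at equal values on the left. Igha lay 1.08- to 1.68-fold above Jchain in all 6 libraries, and Ighm kept to 244 to 715 over the whole range of Jchain.

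The class makeup was compared as shares of the summed heavy chain constant value, each gene divided by its merged exon length. IgA made up 20.1%, 3.79% and 52.0% in sham mice 1, 2 and 3 against 22.7%, 3.70% and 66.5% in ON-CR mice 4, 5 and 6. Mouse 6 and sham mouse 3 were the only libraries in which IgA held a larger share than IgM. The means were 25.3% ± 24.5 for sham and 31.0% ± 32.2 for ON-CR (SD, n = 3 each; two-sided exact permutation p = 0.8, adjusted over 4 composition measures p = 0.9). The difference was smaller than the spread between mice, and without mouse 6 it changed sign, from 5.68 to -12.1 percentage points. With 3 mice per group this test cannot give a p under 0.1.

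IgM made up 73.0%, 88.6% and 40.7% in the sham mice against 74.8%, 93.9% and 2.67% in the ON-CR mice (two-sided exact permutation p = 0.9, adjusted p = 0.9, n = 3 each). ON-CR mice 4 and 5 were close to sham mice 1 and 2, and mouse 6 was below all others. The difference in means was -10.3 percentage points and became 16.9 without mouse 6. IgG made up 5.77%, 1.22% and 5.08% in the sham mice. It made up 1.78% in ON-CR mouse 4, 0% in mouse 5 and 30.7% in mouse 6. The depth behind these shares differed widely. Of the heavy chain constant reads, Igha took 13 of 252 in ON-CR mouse 5, or 5.16% (Wilson 95% interval 3.04% to 8.62%). It took 20657 of 26833 in mouse 6, or 77.0% (76.5% to 77.5%). IgG took 0 of 252 reads in mouse 5, with an upper Wilson bound of 1.502%. These intervals cover counting error only.

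**Figure D3:**
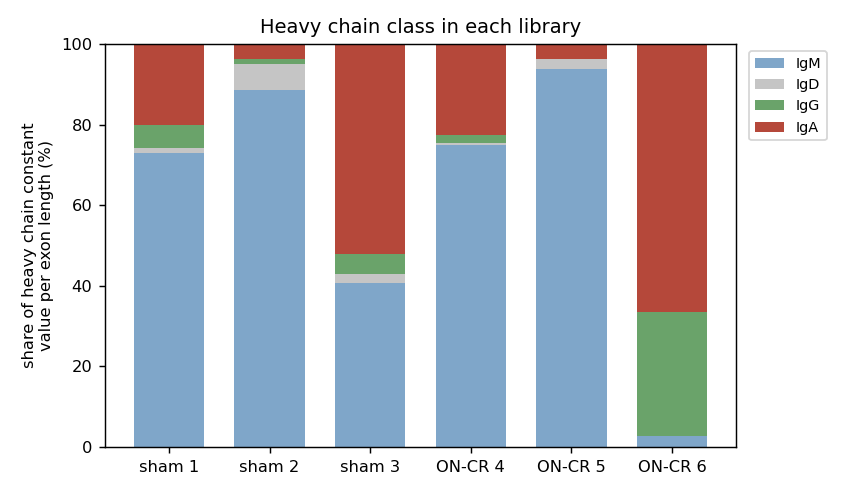
Share of the heavy chain constant value, per exon length and in percent, taken by IgM, IgD, IgG and IgA in each of the 6 libraries. IgM was between 72.99% and 93.9% in sham mice 1 and 2 and ON-CR mice 4 and 5, and IgA was 52.0% in sham mouse 3 and 66.5% in ON-CR mouse 6.

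Light chains were almost all of the kappa type in every library. By the constant genes per exon length, kappa made up 97.9%, 98.4% and 98.2% in sham mice 1, 2 and 3 against 98.4%, 100% and 99.7% in ON-CR mice 4, 5 and 6. The means were 98.2% ± 0.209 and 99.4% ± 0.827 (SD, n = 3 each; two-sided exact permutation p = 0.1, the smallest this design can give, adjusted over 4 measures p = 0.4). The groups did not overlap only on this scale. Without division by length, and with the length of the shortest transcript, mouse 4 fell below sham mouse 2 and the exact permutation p was 0.3. Without mouse 6 the difference was 1.06 percentage points, against 1.21 with all mice. The value of 100% in mouse 5 rests on 46 light chain reads, and its Wilson 95% interval reaches down to 92.3%. In mouse 6 the share rests on 80866 reads, with an interval from 99.65% to 99.73% before division by length. Lambda V genes were few. Iglv1 was at 5.31, 0 and 20.7 in the sham mice and at 0, 0 and 115 in the ON-CR mice. Iglv3 was detected in mice 4 and 6 only, at 6.98 and 15.6.

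Kappa V genes summed to 358, 54.0 and 767 in sham mice 1, 2 and 3 and to 355, 7.34 and 49513 in ON-CR mice 4, 5 and 6. Of the 57 genes, 33, 7 and 46 had at least 1 read in the sham mice against 26, 3 and 55 in the ON-CR mice. Sham mouse 3 thus spread 816 kappa V reads over 46 genes, whereas mouse 6 spread 47683 reads over 55. Within mouse 6 the values ran from 0 to 18761 with a median of 39.5, and 8 genes were above 1000. The ninth gene, Igkv2-137, held 0.573% of the kappa V reads, below the 3.31% of the eighth, Igkv1-110.

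Igkv8-21, whose sequence is printed above, was at 15.9, 0 and 62.0 in sham mice 1, 2 and 3 and at 70.8, 0 and 18761 in ON-CR mice 4, 5 and 6. It held 37.9% of the kappa V reads of mouse 6 and also led sham mouse 3 at 8.09% and ON-CR mouse 4 at 19.9%. Igkv16-104 was at 10.6, 0 and 15.0 in the sham mice and at 0, 0 and 13649 in the ON-CR mice. It held 27.6% of the kappa V reads of mouse 6, 2.97% in sham mouse 1 and 1.96% in sham mouse 3. Igkv8-21 was thus the leading kappa V gene in 3 libraries, while Igkv16-104 was among the 10 leading genes in mouse 6 but not in sham mice 1 and 3 or ON-CR mouse 4. The 2 genes together took 65.5% of the kappa V reads of mouse 6 (Wilson 95% interval 65.0% to 65.9%). The leading 2 genes took 24.3% in sham mouse 1, 14.3% in sham mouse 3 and 34.0% in ON-CR mouse 4.

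Igkv6-15 led sham mice 1 and 2. It was at 53.1, 37.2 and 40.4 in the sham mice and at 30.9, 0 and 2406 in the ON-CR mice, and its share of 68.9% in sham mouse 2 rests on 42 of 61 reads. Igkv1-135 was at 34.0, 0 and 44.1 in the sham mice and at 28.9, 0 and 3544 in the ON-CR mice. Its share of the kappa V reads was 9.50%, 5.76%, 8.15% and 7.16% in mice 1, 3, 4 and 6, the libraries with the most of these reads. Igkv1-135 took 0 of 61 in sham mouse 2 and 0 of 7 in ON-CR mouse 5. Igkv1-117 was at 2476 in mouse 6. It is 97.2% identical to Igkv1-110, and Igkv1-135 is 96.7% identical to Igkv1-133, so reads of these pairs may have been split. In ON-CR mouse 5 all 7 kappa V reads came from 3 genes, led by Igkv10-94 at 4.19. Of the 10 leading kappa V genes, sham mice 1 and 3 and ON-CR mice 4 and 6 shared 3, namely Igkv1-135, Igkv6-15 and Igkv8-21.

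**Figure D4:**
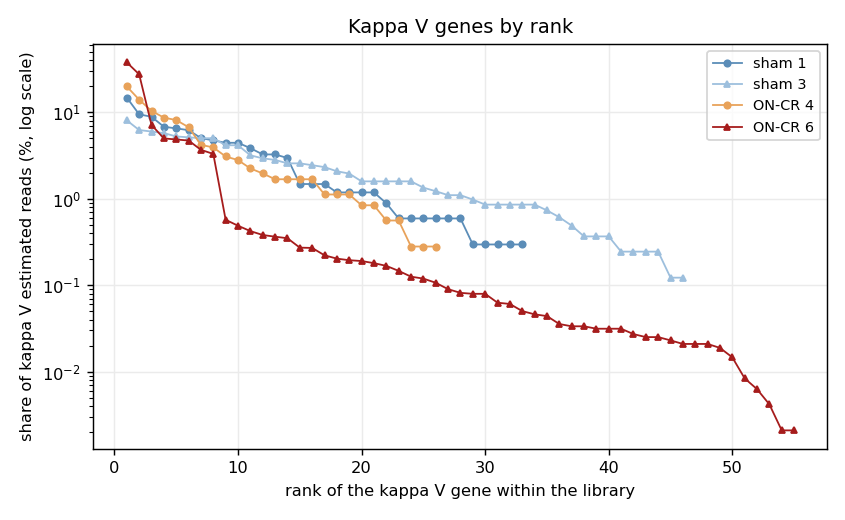
Share of the estimated kappa V reads of a library, in percent on a log scale, against the rank of the gene in that library, for the 4 libraries with the most kappa V reads. In ON-CR mouse 6 the curve starts at 37.9% and 27.6% and drops from 3.31% at the eighth gene to 0.573% at the ninth, whereas sham mouse 3 starts at 8.09% and falls gradually.

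The evenness of V use was measured as the effective number of V genes, the inverse Simpson index over all 99 V genes of the table. These are 99 of 346 annotated V genes, and many of them entered the table through mouse 6. V genes with few reads in every library are absent, so the index does not cover the loci and the libraries are not on equal terms. It was 19.3, 2.46 and 30.4 in sham mice 1, 2 and 3 against 11.7, 2.33 and 4.96 in ON-CR mice 4, 5 and 6. The means were 17.4 ± 14.1 and 6.33 ± 4.84 (SD, n = 3 each; two-sided exact permutation p = 0.3, adjusted over 4 measures p = 0.6). The difference was -11.0 with all mice and -10.4 without mouse 6. The low values of sham mouse 2 and ON-CR mouse 5 come with few reads, 61 and 7 for the kappa V genes, whereas mouse 6 was low with the most reads of all. At an equal depth of 337 kappa V reads, 33, 42.5, 25.8 and 21.2 kappa V genes are expected in mice 1, 3, 4 and 6. Mouse 6 was the lowest of these 4 libraries at that depth too, next to mouse 4. At 61 reads, where sham mouse 2 can be included, 20.8, 7, 27.1, 17.4 and 10.9 genes are expected in mice 1, 2, 3, 4 and 6, and sham mouse 2 was below mouse 6.

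The listed heavy V genes had much lower summed values than the listed kappa V genes. They summed to 52.0, 6.20 and 74.98 in sham mice 1, 2 and 3 and to 17.0, 0 and 3895 in ON-CR mice 4, 5 and 6. All 40 were highest in mouse 6, where 35 of them were below 100. Nothing is read from the count of 40, since heavy V genes with few reads elsewhere entered the table through mouse 6. Ighv8-12 was at 1.06, 0 and 0.939 in the sham mice and at 0, 0 and 1682 in the ON-CR mice, so it went from 2 reads in all other libraries to 43.2% of the heavy V reads of mouse 6. Ighv1-81 followed at 356 and Ighv1-64 at 324. Other genes led elsewhere, with Ighv5-17 at 12.7 in sham mouse 1, Ighv9-3 at 18.8 in sham mouse 3 and Ighv14-3 at 3.99 in ON-CR mouse 4. The ratio of summed heavy V to heavy constant values was 0.0493, 0.0118 and 0.0774 in the sham mice against 0.0280, 0 and 0.140 in the ON-CR mice. The ratio of kappa V to Igkc was higher throughout, at 0.423, 0.289 and 0.479 and at 0.452, 0.152 and 0.591. These values were not divided by length, and Igha has 2668 exon bases where Igkc has 532. The table also held 40 of 183 heavy V genes against 57 of 160 kappa V genes, so the 2 ratios are not on the same scale.

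The leading V genes of mouse 6 were not neighbours. Igkv8-21 lies 407 kb and Igkv16-104 lies 2297 kb from the first kappa J gene. Igkv8-21 is annotated on the strand opposite to the J genes and Igkv16-104 on the same strand. Ighv8-12 lies 2218 kb from the first heavy J gene and Ighv5-17, at 233 in mouse 6, lies 430 kb from it.

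J segments were likewise highest in mouse 6. The heavy J genes summed to 3.18, 0 and 3.76 in sham mice 1, 2 and 3 and to 3.99, 0 and 211 in ON-CR mice 4, 5 and 6. Of the 211 in mouse 6, Ighj3 made up 153, and Ighj1, Ighj2 and Ighj4 were at 10.4, 23.6 and 23.9. The kappa J genes summed to 3.18, 1.77 and 3.16 in the sham mice and to 5.98, 0 and 384 in the ON-CR mice. In mouse 6, Igkj2 was at 262, Igkj5 at 104 and Igkj1 at 17.7. Outside mouse 6 the only J gene above the floor of 3 reads was Igkj5 in ON-CR mouse 4, with 4 reads and a value of 3.99, so the relative use of J segments could not be compared there at this depth.

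Genes of the B cell lineage and of antibody handling gave the surroundings of these values. Of 16 plasma cell and secretion genes, 0 passed the limma test in either direction (median log2 fold change 0.47), where 2.1% of all genes did. Of the 16, 12 were highest in mouse 6, where 19.97% of all genes were. Mzb1, a chaperone of antibody assembly, was at 13.2, 3.54 and 12.1 in sham mice 1, 2 and 3 and at 5.98, 1.53 and 986 in ON-CR mice 4, 5 and 6. It was 74.9-fold above the next library in mouse 6, whereas Sdc1 and Tnfrsf17 of the same list were 1.23- and 1.29-fold above it. Xbp1, a transcription factor of secretory cells that many cell types express, went the other way, at 1780, 2083 and 1904 in the sham mice against 1587, 996 and 635 in the ON-CR mice. Of 11 B cell genes, 9 were highest in mouse 6, beside the same 19.97% of all genes. Cd79a, a signalling chain of the B cell receptor, was at 90.2, 41.6 and 77.9 in the sham mice against 37.9, 56.6 and 279 in the ON-CR mice, so it was 3.10-fold above the next library in mouse 6, where Igha was 36.5-fold above it. Their part in the immunoglobulin values was not tested.

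Of the 11 B cell genes, 1 passed the limma test as higher after ON-CR, where 0.971% of all genes did, and 0 as lower. It was Cd22, an inhibitory lectin of B cells that microglia also express, which was at 34.0, 10.6 and 13.1 in the sham mice and at 185, 133 and 215 in the ON-CR mice. The groups did not overlap (log2 fold change 3.29, standard error 0.41, adjusted p = 0.00441 by limma). Its library order was not that of the immunoglobulin genes, and without mouse 6 the log2 fold change was 3.14 (adjusted p = 0.0709 by limma). Cd37, a tetraspanin of leukocytes, also had higher values in all ON-CR mice, at 326, 199 and 238 in the sham mice and at 503, 359 and 637 in the ON-CR mice, and did not pass (log2 fold change 0.96, adjusted p = 0.0750 by limma).

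Of 8 receptors that bind or carry immunoglobulin, 3 rose and 0 fell after ON-CR by limma, where 0.971% of all genes rose, and the median log2 fold change of the 8 was 1.08. Fcgr2b, the inhibitory receptor for IgG, was at 514, 367 and 379 in sham mice 1, 2 and 3 and at 1251, 939 and 1470 in ON-CR mice 4, 5 and 6 (log2 fold change 1.53, standard error 0.19, adjusted p = 0.00403 by limma). Fcer1g, the signalling chain shared by activating Fc receptors, was at 1138, 1025 and 1041 in the sham mice against 3154, 1860 and 3339 in the ON-CR mice (log2 fold change 1.34, adjusted p = 0.00880 by limma). Fcgr3, an activating IgG receptor, rose by 1.00 on the log2 scale (adjusted p = 0.0393 by limma). All ON-CR mice were above all sham mice for 4 of the 8, namely these 3 and Fcgr1, where the groups did not overlap for 21.6% of all genes. ON-CR mouse 5, in which immunoglobulin was lowest, was among them. Without mouse 6 none of the 3 passed, with log2 fold changes of 1.38, 1.18 and 0.76 and adjusted p of 0.0518, 0.0936 and 0.163 by limma for Fcgr2b, Fcer1g and Fcgr3. Fcgr3 was called in 10 of 16 settings and was lost also without each sham mouse, without ON-CR mouse 4 and without a trend. Fcer1g was called in 12 of 16 and was lost also without sham mouse 2 or 3 and without a trend. Fcgr2b, like Cd22 above, was called in 14 of 16 and was lost also without a trend. Fcgrt, the neonatal Fc receptor that carries IgG across cells, was at 4772 to 6498 and did not pass (log2 fold change -0.17). Of 5 microglia genes, 1 moved with these receptors past the test, where 0.971% of all genes rose. Aif1 was at 635, 486 and 514 in the sham mice and at 1434, 842 and 1653 in the ON-CR mice (log2 fold change 1.22, adjusted p = 0.0260 by limma). The other 4 did not pass, and the median log2 fold change of the 5 was 0.33. Tmem119 and P2ry12 were lower after ON-CR, with log2 fold changes of -0.27 and -0.35. All ON-CR mice were above all sham mice for Aif1 and below them for Tmem119. The 5 microglia genes summed to 9100 to 11867 in the sham mice and to 15120, 9834 and 14956 in the ON-CR mice, and their part in the receptor values was not tested.

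Markers of other cells were set beside the immunoglobulin values. All 10 T cell genes were highest in mouse 6, where 19.97% of all genes were. The 10 genes summed to 273, 308 and 765 in the sham mice against 596, 256 and 1819 in the ON-CR mice. By limma 0 of 10 passed, where 2.1% of all genes did. Blood genes summed to 136974 to 509290, were highest in sham mouse 1, and none of the 5 was highest in mouse 6. Of 11 genes of glandular, airway and mucosal epithelium, tissues in which IgA plasma cells reside, 0 were highest in mouse 6. By limma 0 of them passed as higher and 1 as lower, where 0.971% and 1.13% of all genes did. It was Cdh1, at 2376, 1545 and 2279 in the sham mice against 1280, 989 and 1250 in the ON-CR mice (adjusted p = 0.0498 by limma). Bpifa1, a secreted airway protein gene, was at 22.3, 0 and 7568 in the sham mice against 0, 4579 and 5894 in the ON-CR mice. It was thus high in sham mouse 3 and ON-CR mouse 6, the libraries with the most Igha, and also in ON-CR mouse 5, which had the least. Bpifb1 and Sec14l3 were highest in the same libraries as Bpifa1. Bpifb1 was at 0, 1.77 and 117 in the sham mice against 0, 372 and 108 in the ON-CR mice. Sec14l3 was at 7.43, 0.885 and 129 in the sham mice against 0.997, 324 and 126 in the ON-CR mice. Not all genes of this list followed them. Krt18 was at 105, 86.8 and 308 in the sham mice against 26.9, 146 and 106 in the ON-CR mice, with sham mouse 1 level with ON-CR mouse 6. Cdh1 was highest in sham mouse 1. Sums were 50.9 to 232 for skeletal muscle and 24.8 to 59.2 for photoreceptors. Of 6 muscle genes 1 passed as lower, namely Myl1 (adjusted p = 0.0485 by limma). It was at 5.31, 13.8 and 6.57 in the sham mice and at 0 in the ON-CR mice. The part of T cells and of glandular or mucosal tissue in the immunoglobulin values was not tested.

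Outside the heavy and light chain genes, the 10 genes whose log2 values were most like the log2 immunoglobulin sum, of 17356 genes with a mean value of at least 20, were Gbp10, Mzb1, H2-Eb1, Napsa, Jchain, Smim24, Srgn, Rpl21-ps15, Clec12a and Gm12987. Pearson's r over the 6 libraries was from 0.982 to 0.993. Over the 5 libraries without mouse 6 it was 0.968 for Gbp10, 0.966 for Mzb1 and 0.981 for Jchain. H2-Eb1, an MHC class II gene of antigen-presenting cells, was at 2648, 2243 and 3280 in the sham mice and at 2408, 1328 and 9322 in the ON-CR mice. The points share their libraries and the genes were picked for this likeness, so the values describe these 6 libraries.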

How the data were processed

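RNA of optic nerves from 3 sham-operated and 3 ON-CR mice was sequenced in bulk, and the groups were taken from the sample labels. For the deposited values, the authors used DRAGEN for alignment and quantification on mm10, followed by the median normalization of Partek Flow (Partek 10.0). Each deposited value is therefore a signal made by the authors, an estimated read number scaled by a single factor for its library. Estimated reads were recovered from the value of 1 read in each library. Between 65.1% and 67.7% of values were whole within 0.01 reads, so no count model was run, and the recovered reads served for depth, shares and intervals.

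The main test was limma (version 3.58.1, R version 4.3.3) on log2 of the value plus a pseudocount of 1, with a trend on the mean, and p-values of all 25755 genes were adjusted by Benjamini-Hochberg. On simulated data with 200 genes changed 4-fold, 199 were called, with 9 false calls. The changed genes were picked above a cut on the mean, and the simulated spread followed the trend over all genes. Igkc and Igha had standard errors of 2.06 and 2.11 on the log2 scale by limma. The 199 calls therefore do not give the power of the test for the immunoglobulin genes. Composition measures were compared with exact permutation tests over mice. Positions, exon lengths and germline sequences were from GENCODE M21 on GRCm38. Joined V and J sequences are not part of that annotation, and reads that fit several V genes may have been split.

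The genes, lists and tests were chosen with earlier results of these data known. Named genes were all constant and J genes, the 5 V genes of each chain with the highest mean, the leading V gene of each library, and up to 5 genes of each list. Igkv1-110, Igkv2-137 and Igkv8-27 were named after their values were seen. Alternatives were other pseudocounts, scalings and filters, robust and trend-free limma, other lengths and evenness indices, and leaving out each mouse. Division by the shortest transcript and leaving out mice from the summed level were added after the data were seen. A planned search of immunoglobulin promoters was not done. Some results for genes of the marker lists are left out.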

Additional observations from a re-analysis of the deposited data

How the results depend on the processing

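Leaving out ON-CR mouse 6 changed the direction of the summed immunoglobulin level, whose log2 ratio ran from -1.05 to 5.26 over the fits that omit a single mouse, against 4.68 with all. The difference in IgA share was from -12.1 to 19.3 percentage points (5.68 with all) and changed sign without ON-CR mouse 6 (-12.1) and without sham mouse 2 (-5.07). The difference in IgM share was from -28.7 to 16.9 points (-10.3 with all) and changed sign without ON-CR mouse 6 (16.9) and sham mouse 2 (0.290). The kappa share difference was from 0.895 to 1.68 points and that of the effective number of V genes from -18.5 to -4.54, each in 1 direction. In equal draws of 7 V reads, the latter was -0.953.

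The number of genes called by limma was 540 with all mice, 7 without a trend, and 67 to 854 over the fits that omit a single mouse. It was 67 without ON-CR mouse 6, 854 without ON-CR mouse 5, and 192, 123 and 258 without sham mouse 1, 2 or 3. The number of immunoglobulin genes called was 0 to 2, and 2 only without ON-CR mouse 5. Scaling every library to the same sum shifted the median of all genes to 0.15 on the log2 scale and gave 421 genes higher and 195 lower, against 250 and 290 as deposited. The cause of these changes was not tested. Of 125 fold changes of 14 named immunoglobulin genes under settings that keep all mice, 123 kept their direction, and without ON-CR mouse 6, 10 of 14 changed sign. No paired analysis was possible because the mice of the groups carry different numbers. Depth limited the comparison, since 5 to 52 of the 117 genes were above the floor of 3 reads in the other 5 libraries, and 111 in mouse 6.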

Other observations

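Beyond the immunoglobulin genes, 18 genes were more than 10-fold higher in ON-CR mouse 6 than in any other library (with values under 1 set to 1). In all, 89 genes passed this size, or 0.346% of the table, and 71 of them were heavy or light chain genes, or 60.7% of the 117. Nothing is read from these shares, since 68 of the 117 had fewer than 10 reads elsewhere and so entered the table through mouse 6. The 18 genes were picked for this pattern, so the values are a description with no test. Slpi, a secreted protease inhibitor of mucosal surfaces, was at 19.1, 12.4 and 14.1 in sham mice 1, 2 and 3 and at 1.99, 14.7 and 692 in ON-CR mice 4, 5 and 6. The adaptor gene Lax1 and the surface protein gene Ly6d, both expressed by lymphocytes, were each at 126 in mouse 6 and at no more than 11.0 and 7.51 elsewhere. Ubd, an interferon-induced ubiquitin-like gene, was at 98.6 there and at no more than 8.45 elsewhere. The T cell genes Ctla4 and Il21 were at 12.5 and 11.96 in mouse 6 and at or near 0 in the other 5 libraries. Jchain, at 34.3-fold, and Mzb1, at 74.9-fold above the next library, were among the 18.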
